A study of Homo sapiens with 6 samples.

Results

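The heat shock proteins and their J-domain co-chaperones (the DNAJ proteins) were examined in PC3 cells, a p53-null human prostate cancer line that grows without androgen, after ectopic expression of miR-34c or of a scramble mimic. The members were all genes with an HSPA, HSPB, HSPD, HSPE, HSPH, HSP90, DNAJA, DNAJB or DNAJC symbol, plus the heat shock factors HSF1 and HSF2 and the HSP70 co-chaperones BAG1 and BAG3, without pseudogenes. Of 75 such genes in the RefSeq gene table, 70 had a probe set of their own and were tested among 18376 named genes. HSPA1A and HSPA1B were covered only by probe sets that name both genes, HSPB2 and DNAJC25 only by probe sets shared with a readthrough transcript, and HSF2 was not analysed here. Expression was measured on 6 whole-transcript arrays, 3 per group, and the series title puts the aim as finding targets of miR-34c. All sample labels carry the name miR-34c, but the free design text speaks of miR-205, and the groups follow the labels. Neither separate cultures nor a dose or time of transfection are stated, so the p-values measure a spread between arrays that may be technical.

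Chaperones of the HSP70 family bind unfolded stretches of proteins and release them in cycles of ATP hydrolysis. J proteins deliver the clients and start the hydrolysis, exchange factors such as the HSP110 and BAG proteins reopen the cycle, and HSP90 takes over late steps of folding of kinases and receptors. Small HSPs hold unfolded proteins without ATP, and the HSP60 and HSP10 chaperonin (HSPD1 and HSPE1) folds proteins inside mitochondria. Under proteotoxic stress HSF1 binds heat shock elements in promoters and switches on the inducible genes, whereas stress in the endoplasmic reticulum (ER) acts on its own chaperone genes through other elements.

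The chaperone genes as a group differed little between miR-34c and scramble, much as genes at large did. The clearest rises were in HSPA2 and HSPA1L, HSP70 paralogues known mainly from testis. With limma across all named genes, 8 of the 70 members passed at a Benjamini-Hochberg adjusted p under 0.05, or 11.4%, against 15.7% of all genes tested. HSPA2, HSPA1L, DNAJC6, HSPB1 and DNAJC22 rose (7.14% of members, 7.67% of all genes), and HSPA13, DNAJC18 and DNAJC2 fell (4.29% of members, 8.01% of all genes). The share of called members was near or below the background, and so was that with an unadjusted p under 0.05 (17 members or 24.3%, against 29.2% of all genes). The median log2 change of the members was 0.024, beside -0.034 over all genes, and 33 members changed by less than 0.1 on the log2 scale. The 95% interval lay within a 1.5-fold change either way for 63 members. The shares of all genes within these limits were not counted. The median absolute log2 change was 0.115 in the members and 0.130 over all genes, so small changes were not particular to the chaperones.

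Few of these calls were firm. HSPA2 and HSPA1L passed under each of 15 alternative settings, while each of the other 6 was lost when 1 of several arrays was left out. The count of rises was 3, 2 and 3 without miR-34c replicates 1, 2 and 3 and 2, 8 and 2 without scramble replicates 1, 2 and 3. Falls numbered 0 without any one of miR-34c replicates 1 to 3 or without scramble replicate 1, then 1 and 5 without scramble replicates 2 and 3. With quantile normalization again 8 members rose and 3 fell. Scramble replicate 2 held the highest of the scramble values in 50 of the 70 members, and miR-34c replicate 1 held the lowest of the miR-34c values in 46. The median over all 28868 probe sets was 0.062 in scramble replicate 2 and between -0.030 and -0.00042 in the other arrays, and the part of this offset in the results below was not tested beyond the settings with re-centred arrays.

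**Figure D1:**
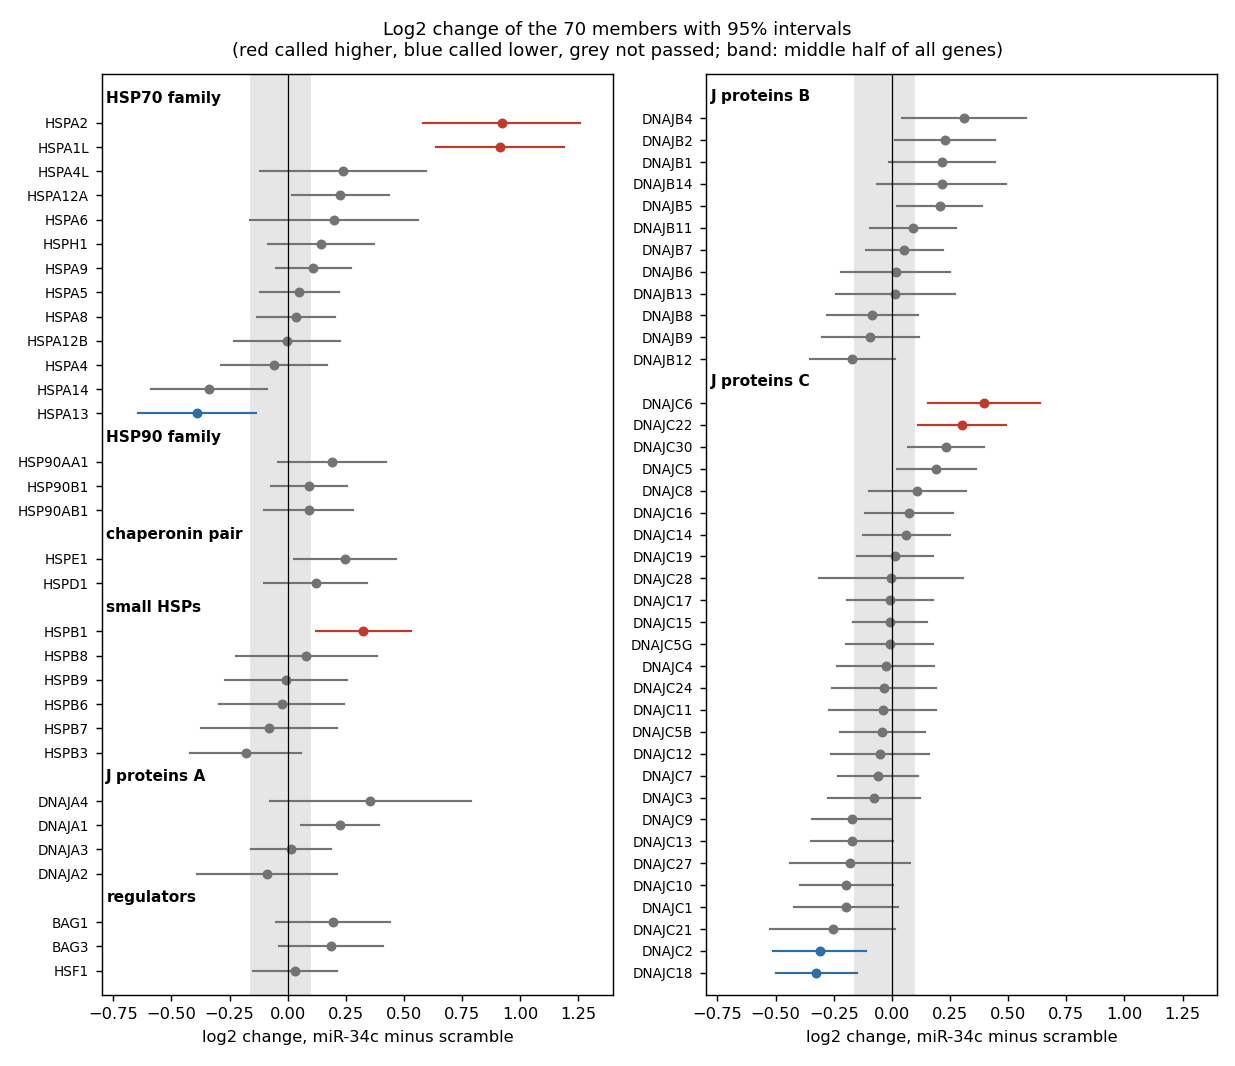
Log2 change (miR-34c minus scramble, horizontal axis) of the 70 members, by class, with 95% intervals from limma. HSPA2 and HSPA1L at 0.92 and 0.91 stand apart on the right, and most other points lie in or near the grey band, which holds the middle of all 18376 genes (25th to 75th percentile, -0.16 to 0.094).

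The HSP70 family held 13 members with a probe set of their own, of which 2 rose, 1 fell and 10 did not pass. This and every later count by class or list stands beside 7.67% of all genes that rose and 8.01% that fell. HSPA2, a chaperone needed for male meiosis and also present in some tumours, had deposited log2 values of 1.46, 1.84 and 1.76 in miR-34c replicates 1 to 3 and 0.70, 0.96 and 0.63 in scramble replicates 1 to 3. The lowest miR-34c array thus lay above the highest scramble array by more than the range within the scramble group. HSPA2 was 1.89-fold higher (log2 change 0.92 ± 0.15, SE, n = 3 per group, limma adjusted p = 0.00347), and over the alternatives its change lay between 0.84 and 1.03 and its adjusted p between 0.00126 and 0.0212.

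HSPA1L, an HSP70 of spermatids encoded beside the inducible HSP70 genes, read 0.87, 1.22 and 1.19 with miR-34c and 0.13, 0.29 and 0.11 with scramble. All miR-34c arrays were far above the scramble arrays. It was 1.88-fold higher (log2 change 0.91 ± 0.12, SE, limma adjusted p = 0.00125), with a change of 0.85 to 1.02 and an adjusted p of 0.000354 to 0.00924 over the alternatives. The 3 probe sets of HSPA1L held identical values and count as 1 measurement.

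HSPA1L starts head to head with HSPA1A, the main heat-inducible HSP70 gene, and the annotated starts are 260 bases apart on chromosome 6. The stretch between them holds a heat shock element of 2 units, which both genes share, and HSPA1B carries the same 8 letters before its own start. The sequences are shown because the shared element sits beside genes whose probe sets had changes of different size. They are from RefSeq promoters (GRCh38.p14), 5′ to 3′ on the strand of the gene, with the element in capitals.
HSPA1L, chr6:31815427-31815454, minus strand: gccaggtcggGAATATTCcagggttttc
HSPA1A, chr6:31815427-31815454, plus strand: gaaaaccctgGAATATTCccgacctggc
HSPA1B, chr6:31827623-31827650, plus strand: gaaacccctgGAATATTCccgacctggc

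HSPA1A and HSPA1B encode nearly the same protein, and their 5 probe sets (4 distinct sets of values) cannot be assigned to either gene. All 5 were higher in each miR-34c array than in each scramble array, as were 15.3% of all genes, with changes of only 1.08-fold to 1.18-fold. The 5 do not count as separate measurements. They name the same genes, and their log2 changes lay either at 0.11 or at 0.23 to 0.24. The probe set with the largest change read 0.58, 0.65 and 0.64 with miR-34c and 0.40, 0.42 and 0.34 with scramble. Its log2 change was 0.24 ± 0.10 (SE), with a limma adjusted p of 0.194 over all 28868 probe sets, and that of the smallest was 0.11 ± 0.092 (adjusted p = 0.504). The rise of HSPA1L exceeded those of the shared probe sets by 0.67 to 0.80 on the log2 scale, a contrast chosen after the values were seen. An exact two-sided permutation test of this difference gave p = 0.1 for each of the 5 probe sets. That is the smallest value the test can give with 3 arrays per group, so it cannot decide, and the difference stands as a description.

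**Figure D2:**
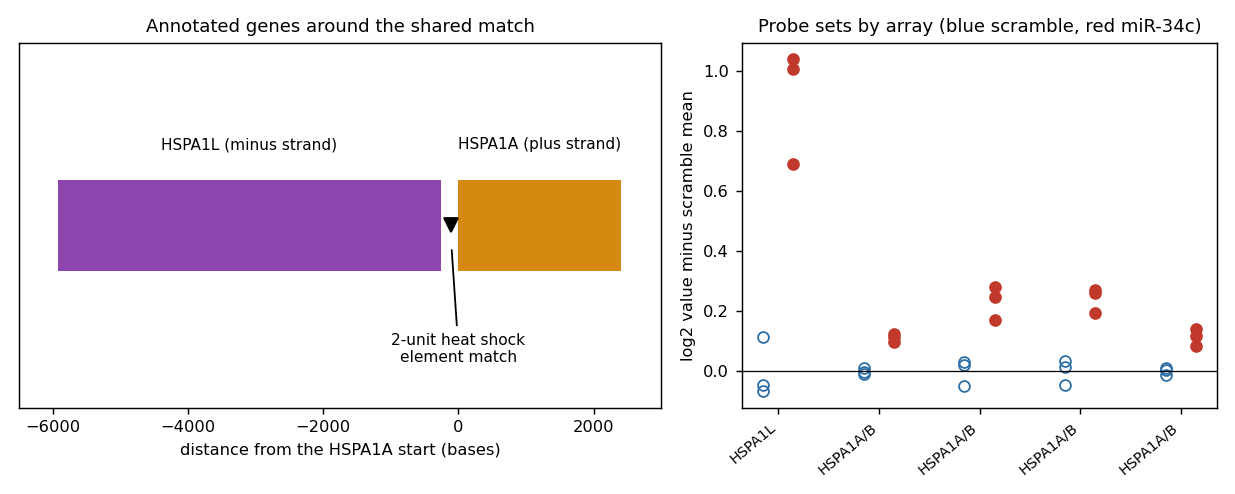
Left, annotated extents of HSPA1L and HSPA1A by distance from the HSPA1A start in bases, with the shared heat shock element as a triangle. Right, log2 value minus the mean of the scramble arrays for HSPA1L and the 4 distinct probe sets of HSPA1A and HSPA1B, where each point is 1 array: HSPA1L rose 1.88-fold and the shared probe sets differed by 1.08-fold to 1.18-fold.

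HSPA13, a microsome-associated member with an ATPase domain only, was the HSP70 gene that fell. Its values were -0.34, -0.27 and -0.30 with miR-34c and 0.033, 0.35 and -0.13 with scramble, so the miR-34c arrays lay close together and the scramble arrays were spread. HSPA13 fell to 0.763 of its scramble mean (log2 change -0.39 ± 0.11, SE, limma adjusted p = 0.0445). The call was lost when miR-34c replicate 1, 2 or 3 was left out (adjusted p = 0.0924, 0.103 and 0.107), or scramble replicate 1 or 2 (0.085 and 0.0682), and also without the variance trend (0.0525) and over all probe sets (0.0724), with a change of -0.50 to -0.26 over the alternatives. HSPA14, an atypical HSP70 of the ribosome-associated complex, had a similar change of -0.34 ± 0.11 that did not pass (adjusted p = 0.068). It was chosen after its values were seen, and it passed with the replicate number as a block, with quantile normalization again, with array weights and without scramble replicate 3 (smallest adjusted p = 0.0273).

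The housekeeping HSP70 genes were close to the scramble level. HSPA8, the constitutive cytosolic HSP70, read 0.12, 0.097 and 0.10 with miR-34c and 0.064, 0.072 and 0.075 with scramble. The groups did not overlap, but the change was 0.035 ± 0.074 (SE), with a 95% interval from -0.13 to 0.20 (adjusted p = 0.805). Its promoter holds a heat shock element of 3 units at each end of the window shown (chr11:123062169-123062376, GRCh38.p14, minus strand), given as an example of a gene with such elements that differed little.
HSPA8: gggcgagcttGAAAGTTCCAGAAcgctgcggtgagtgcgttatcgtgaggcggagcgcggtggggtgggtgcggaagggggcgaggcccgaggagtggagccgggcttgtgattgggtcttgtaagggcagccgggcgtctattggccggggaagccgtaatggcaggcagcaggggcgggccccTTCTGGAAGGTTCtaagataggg

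HSPA9, the mitochondrial HSP70 mortalin, changed by 0.11 ± 0.072 (95% interval -0.052 to 0.27) and did not pass. HSPH1, an HSP110 exchange factor induced by heat, changed by 0.14 ± 0.10 (-0.085 to 0.37) and did not pass either, although all its miR-34c arrays lay above the scramble arrays. The other 6 members of the family (HSPA4, HSPA4L, HSPA5, HSPA6, HSPA12A and HSPA12B) had changes between -0.059 and 0.24 and did not pass.

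**Figure D3:**
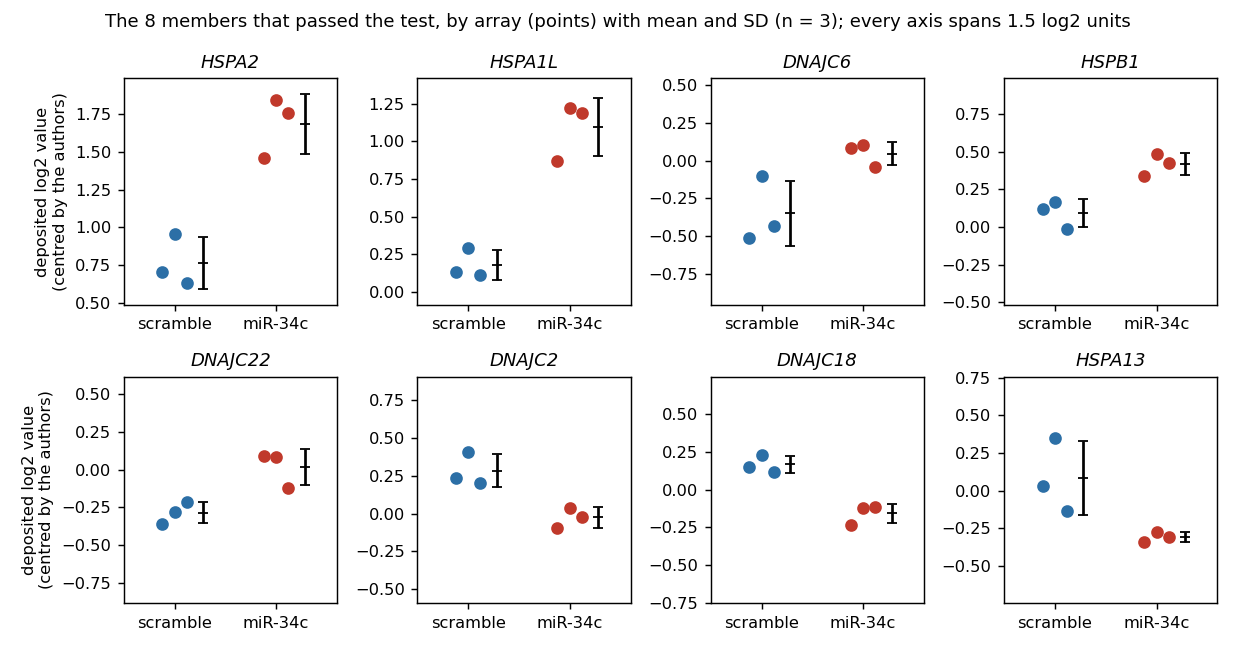
Deposited log2 values (vertical axis, centred by the authors) of the 8 members that passed, with 1 point per array and the mean ± SD of 3 arrays at the side. Each axis spans the same width, so the separation in HSPA2 and HSPA1L can be set against the narrower one in the other 6, and HSPA13 shows the spread of the scramble arrays from -0.13 to 0.35.

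None of the 3 HSP90 genes passed, and none had an unadjusted p under 0.05 in limma. HSP90AA1, the stress-inducible cytosolic form, read 0.58, 0.62 and 0.66 with miR-34c and 0.32, 0.57 and 0.39 with scramble. The groups were apart by a narrow margin, and the change was 0.19 ± 0.10 (SE, adjusted p = 0.258). HSP90AB1, the constitutive form, changed by 0.089 ± 0.085 (95% interval -0.10 to 0.28) and HSP90B1, the ER form GRP94, by 0.091 ± 0.073 (-0.072 to 0.25). The groups of HSP90B1 were apart, with 0.062, 0.093 and 0.10 with miR-34c and -0.018, 0.013 and -0.013 with scramble.

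The mitochondrial chaperonin genes HSPD1 and HSPE1, which start 105 bases apart from a common promoter region, were both higher in each miR-34c array than in each scramble array, yet neither passed. HSPE1 read 0.47, 0.61 and 0.57 against 0.22, 0.42 and 0.28, a change of 0.25 ± 0.099 (SE, adjusted p = 0.128, unadjusted p = 0.032). HSPD1 read 0.50, 0.52 and 0.46 against 0.44, 0.46 and 0.23, a change of 0.12 ± 0.099 (adjusted p = 0.474). With array weights HSPE1 passed (adjusted p = 0.0497).

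Of the 6 small HSPs HSPB1 rose and 5 did not pass. HSPB1, or HSP27, an oligomeric holdase that is abundant in many carcinomas, read 0.34, 0.48 and 0.43 with miR-34c and 0.12, 0.16 and -0.013 with scramble. The groups did not overlap, and HSPB1 was 1.25-fold higher (log2 change 0.33 ± 0.091, SE, limma adjusted p = 0.0378). It did not pass once replicate 2 or 3 of miR-34c was removed (adjusted p = 0.137 and 0.119), once replicate 1 or 3 of scramble was removed (0.081 and 0.0977), nor over all probe sets (0.0708) or with the replicate number as a block (0.0558), and the smallest adjusted p over the alternatives was 0.0163. HSPB3 and HSPB7, small HSPs of muscle, had changes of -0.18 and -0.081, and those of HSPB6, HSPB8 and HSPB9 lay between -0.026 and 0.079. HSPB3 passed without scramble replicate 3 (change -0.30, adjusted p = 0.0465), and the sign of HSPB7 turned without miR-34c replicate 1 (0.093).

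The relative of these genes with a symbol outside the family rule, CRYAB, the alpha-B crystallin also called HSPB5, changed more than any of the 70 members. It read 1.26, 1.28 and 1.5 with miR-34c and 0.18, 0.29 and 0.011 with scramble. CRYAB was 2.27-fold higher (log2 change 1.19 ± 0.12, SE, limma adjusted p = 0.000266), and it passed under all 15 alternatives, with changes of 1.11 to 1.27.

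The J proteins are grouped by domain layout. Type A proteins keep the whole layout of the bacterial DnaJ, type B lack its zinc finger, and type C share only the J domain. Of the 4 type A genes none passed in limma, and 1 had an unadjusted p under 0.05. This was DNAJA1, a main cytosolic partner of HSP70, which read -0.019, 0.091 and 0.062 with miR-34c and -0.21, -0.11 and -0.22 with scramble. The groups were apart, and the change was 0.22 ± 0.075 (SE, adjusted p = 0.0752). DNAJA1 passed on re-centred arrays (adjusted p = 0.0288), after a further quantile normalization (0.0285) and under array weights (0.0333). DNAJA4 changed by 0.35 ± 0.19 (adjusted p = 0.261), with scramble replicate 2 above all other arrays, and without that replicate it passed (change 0.59, adjusted p = 0.0272). DNAJA2 and DNAJA3 changed by -0.088 and 0.014, and the sign of DNAJA2 turned without scramble replicate 2 (0.014), without miR-34c replicate 1 (0.041) and with array weights (0.0012).

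None of the 12 type B genes passed in limma, and 3 had an unadjusted p under 0.05 (DNAJB2, DNAJB4 and DNAJB5). DNAJB1, or HSP40, the partner of inducible HSP70, read 0.58, 0.68 and 0.63 with miR-34c and 0.36, 0.55 and 0.34 with scramble, a change of 0.21 ± 0.10 (SE, adjusted p = 0.199). Its groups were apart by the margin between 0.58 and 0.55. DNAJB4, another heat-induced member, changed by 0.31 ± 0.12 (adjusted p = 0.116), and its scramble replicate 2, at 0.44, lay above the miR-34c replicate at 0.41. DNAJB2, a neuronal J protein, and DNAJB5 changed by 0.23 ± 0.097 and 0.21 ± 0.082. Without scramble replicate 2, DNAJB4 (change 0.43, adjusted p = 0.0234) and DNAJB2 (0.33, adjusted p = 0.0194) passed.

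Type C is the largest class, with 27 genes of varied roles, of which 2 rose, 2 fell and 23 did not pass. The shares over all genes were 7.67% for rises and 8.01% for falls. The median of the class was -0.033, beside -0.034 over all genes, and with quantile normalization again they were 0.00092 and -0.00016, so the sign of the class turned. DNAJC6, or auxilin, which uncoats clathrin vesicles with HSPA8, read 0.081, 0.10 and -0.041 with miR-34c and -0.51, -0.10 and -0.43 with scramble. The groups did not overlap, though scramble replicate 2 came close, and DNAJC6 was 1.32-fold higher (log2 change 0.40 ± 0.11, SE, limma adjusted p = 0.0336). The call was lost without any of miR-34c replicates 1, 2 and 3 (adjusted p = 0.0755, 0.112 and 0.0531), without scramble replicates 1 and 3 (0.116 and 0.104) and over all probe sets (0.0556), and the smallest value over the alternatives was 0.00574.

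DNAJC22, a J protein with membrane-spanning segments, read 0.092, 0.082 and -0.12 with miR-34c and -0.36, -0.28 and -0.22 with scramble. It was 1.23-fold higher (log2 change 0.30 ± 0.085, SE, limma adjusted p = 0.0382). The adjusted p was 0.115 and 0.135 without miR-34c replicates 1 and 2, 0.122, 0.0719 and 0.053 without scramble replicates 1, 2 and 3, 0.065 with the replicate block and 0.0556 over all probe sets, with a smallest value of 0.0213 over the alternatives.

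DNAJC18, a membrane-anchored J protein, had the smallest adjusted p of the members that fell. It read -0.23, -0.12 and -0.12 with miR-34c and 0.15, 0.23 and 0.12 with scramble, so the groups lay on opposite sides of 0. DNAJC18 fell to 0.798 of its scramble mean (log2 change -0.33 ± 0.078, SE, limma adjusted p = 0.0201), and without miR-34c replicates 1, 2 and 3 and scramble replicate 1 the adjusted p was 0.0701, 0.0598, 0.0601 and 0.0508, with a smallest value of 0.0139 over the alternatives.

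DNAJC2, or MPP11, the ribosome-bound partner of HSPA14, read -0.096, 0.040 and -0.020 with miR-34c and 0.24, 0.41 and 0.20 with scramble. The fall was to 0.807 of its scramble mean (log2 change -0.31 ± 0.090, SE, limma adjusted p = 0.0426). The adjusted p was 0.114, 0.0871 and 0.126 without miR-34c replicates 1, 2 and 3, 0.0766 and 0.0843 without scramble replicates 1 and 2, 0.0561 after quantile normalization again and 0.0714 over all probe sets, and the smallest was 0.0347. DNAJC2 and HSPA14 form 1 complex and had similar changes of -0.31 and -0.34, of which only the first passed.

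Of the remaining type C genes DNAJC30, chosen after its values were seen, came nearest to the threshold (change 0.23 ± 0.073, adjusted p = 0.0569), with all miR-34c arrays above all scramble arrays. It passed with re-centred arrays, with quantile normalization again, with array weights and without scramble replicate 2 (smallest adjusted p = 0.0199). DNAJC19, a subunit of the mitochondrial import motor, had 2 probe sets that disagreed. The one used changed by 0.014, and the other by -0.34 ± 0.11 with all miR-34c arrays below all scramble arrays (adjusted p = 0.087 over all probe sets).

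The regulators did not pass, and none had an unadjusted p under 0.05 in limma. HSF1, the factor that drives the heat shock response, read -0.093, -0.054 and -0.091 with miR-34c and -0.070, -0.016 and -0.25 with scramble. The groups overlapped, and the change was 0.031 ± 0.082 (95% interval -0.15 to 0.21), which turned to -0.037 without scramble replicate 3. BAG3, an HSF1 target that links HSP70 to autophagy, changed by 0.19 ± 0.10 (adjusted p = 0.258), and BAG1, an exchange factor that links HSP70 to the proteasome, by 0.19 ± 0.11 (adjusted p = 0.277).

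Grouped by role, 1 of 11 measured genes on a hand-drawn list of cytosolic genes induced by HSF1 passed, against 15.7% of all genes. The list is not complete, and it holds HSPA8 and HSP90AB1, both named above as constitutive forms. Of 11 measured members of that list (HSPA4, HSPA6, HSPA8, HSPH1, HSPB1, HSP90AA1, HSP90AB1, DNAJA1, DNAJB1, DNAJB4 and BAG3) HSPB1 rose, none fell and 10 did not pass, while 10 of the 11 changes were above 0 (90.9%, against 42.3% of all genes). The median change was 0.19, the value of HSP90AA1 (1.14-fold), against -0.034 over all genes. The mean of the 11 genes was 0.47, 0.57 and 0.52 in miR-34c replicates 1 to 3 and 0.32, 0.47 and 0.26 in scramble replicates 1 to 3, so that scramble replicate 2 lay at the level of miR-34c replicate 1 and the groups overlapped. The median was 0.22 with re-centred arrays and 0.27 with quantile normalization again, which called 2 and 3 of the 11.

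**Figure D4:**
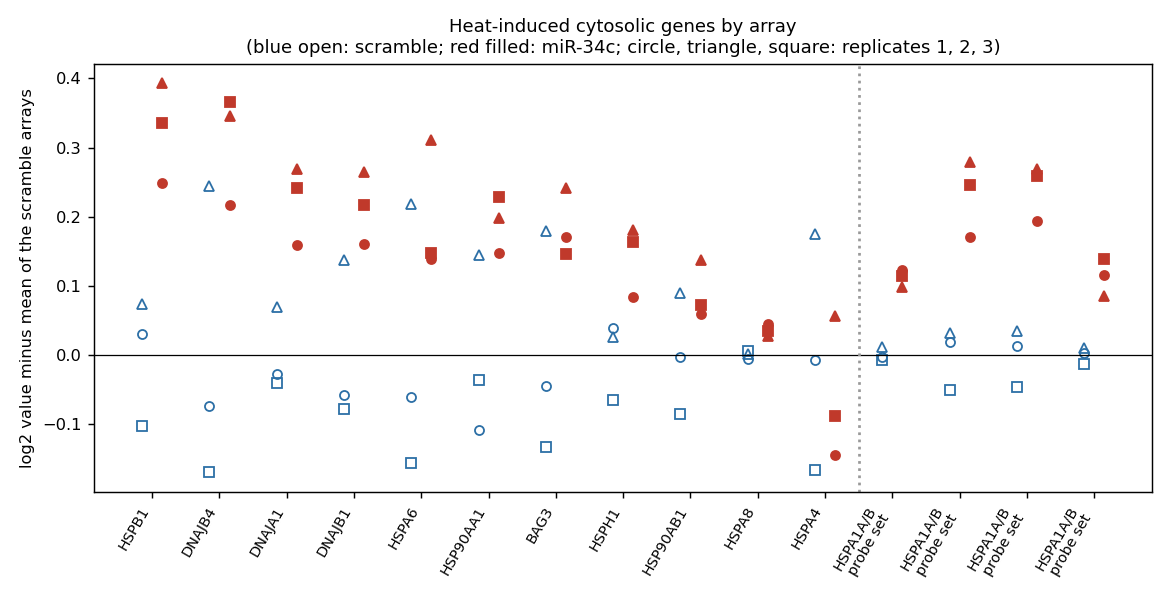
Log2 value minus the mean of the scramble arrays for the 11 genes listed as induced by HSF1, with 1 symbol per array. Right of the dotted line are the 4 distinct probe sets of HSPA1A and HSPA1B. The filled miR-34c symbols lie mostly above the open scramble symbols, and the open triangle of scramble replicate 2 reaches or passes them in DNAJB4, HSPA6, BAG3, HSP90AB1 and HSPA4.

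A list of ER members, drawn up by hand and not complete, held 11 measured genes. These were HSPA5, HSPA13, HSP90B1, DNAJB9, DNAJB11, DNAJB12, DNAJB14, DNAJC1, DNAJC3, DNAJC10 and DNAJC16. Of the 11, HSPA13 fell, none rose, 5 changes were above 0 and the median change was -0.076. DNAJC18, a membrane-anchored J protein that fell (log2 change -0.33, limma adjusted p = 0.0201), was not on this list. The difference between these lists was not tested. HSPA5, or BiP, the ER HSP70, read 0.073, 0.084 and 0.12 with miR-34c and 0.083, 0.050 and -0.0033 with scramble, a change of 0.050 ± 0.076 (SE, 95% interval -0.12 to 0.22). DNAJB9 and DNAJC3, J proteins of the unfolded protein response, changed by -0.093 and -0.076, and the sign of DNAJC3 turned without scramble replicate 2 (0.0020). HSPA5 and HSP90B1 were the members with an ER stress element in their promoter windows, which is shown for both because their mRNAs moved so little (chr9:125241381-125241419, minus strand, and chr12:103930206-103930349, plus strand, RefSeq, GRCh38.p14). Capitals mark the element on either strand.
HSPA5: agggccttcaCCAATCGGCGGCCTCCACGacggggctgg
HSP90B1: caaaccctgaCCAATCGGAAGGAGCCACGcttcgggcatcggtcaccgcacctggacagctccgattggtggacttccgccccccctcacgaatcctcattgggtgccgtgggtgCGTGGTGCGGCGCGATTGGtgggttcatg

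A list of mitochondrial members, also drawn up by hand and not complete, held 7 genes (HSPA9, HSPD1, HSPE1, DNAJA3, DNAJC11, DNAJC15 and DNAJC19). DNAJC30 (change 0.23, limma unadjusted p = 0.0095) was not on it, and the second probe set of DNAJC19 (change -0.34) was not counted. Of the 7 listed genes none passed in limma and 1 had an unadjusted p under 0.05. Their changes lay between -0.039 and 0.25 with a median of 0.014.

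Separation of the groups leaned upward across the members. All miR-34c arrays lay above all scramble arrays in 18 of 70 (25.7%), against 15.3% of all genes, and below in 5 (7.14%), against 18.9% of all genes. The upward separations were mostly small, as in HSPA8, and 5 of the 18 passed the test.

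Heat shock elements were searched for as GAANNTTC or TTCNNGAA (2 units) and as GAANNTTCNNGAA or TTCNNGAANNTTC (3 units, which contain the shorter forms), both strands, in RefSeq windows of 300 bases, 250 before and 50 after each start. A window was found for 63 of the 70 members, and genes with several starts have several windows. A match of 2 units was present in 20 of the 63 (31.7%), against 16.2% of 27305 genes in the table and 13.5% of its 35116 windows, and 1 of 3 units in 7 (11.1%), against 0.608% of genes. Among the 20 members with a match 3 rose (HSPA1L, HSPB1 and DNAJC6), none fell, 17 changes were above 0 and the median was 0.16. Of all tested genes with a match 8.10% rose and 41.5% of changes were above 0. Among the 43 without a match 1 rose and 3 fell, and the median was -0.0059. Matches outside the windows were not searched for. HSPE1, HSPH1 and BAG3 thus counted as without a match, while HSPD1, which shares a promoter region with HSPE1, held 3 of 2 units. Over all tested genes with a window, those with a match had a median of -0.041 and those without one -0.032. The 7 members with a match of 3 units (DNAJA1, DNAJB6, HSP90AA1, HSP90AB1, HSPA6, HSPA8 and HSPD1) had changes between 0.016 and 0.22, none of which passed. Of all tested genes with such a match 5% rose, 50% of changes were above 0 and the median was -0.0048. The element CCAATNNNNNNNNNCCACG, searched on both strands, was in 2 member promoters (3.17%) and in 0.0916% of all genes. Of the 19 tested genes with this element 15.8% rose, 63.2% of changes were above 0 and the median was 0.062. For tested genes without it these values were 7.95%, 42.7% and -0.033. A match describes the letters only. A match of 2 units from HSPB1 (chr7:76302481-76302508) and one from DNAJA1 (chr9:33025065-33025092) are shown, both on the plus strand. They were taken because these genes had the smallest adjusted p among the 11 members listed as induced by HSF1. The stretch of DNAJA1 holds 1 of the 3 matches of 2 units in its windows, and not its match of 3 units.
HSPB1: cttaacgagaGAAGGTTCcagatgaggg
DNAJA1: aagggctccaGAAGATTCcacgagcgcc

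Partners of the chaperones that carry other symbols were examined from lists of their own. For each list the shares over all genes were 7.67% for rises and 8.01% for falls. Of 10 exchange factors and other HSP70 partners BAG2 and SIL1 rose and none fell (median change 0.087). BAG2, an exchange factor that inhibits the ubiquitin ligase CHIP, read 0.051, 0.14 and 0.18 with miR-34c and -0.55, -0.38 and -0.64 with scramble. It was 1.57-fold higher (log2 change 0.65 ± 0.086, SE, limma adjusted p = 0.0011) and passed under all 15 alternatives. SIL1, the exchange factor of BiP, was 1.3-fold higher (adjusted p = 0.0215), a call lost without miR-34c replicate 2, scramble replicate 1 and scramble replicate 2 (largest adjusted p = 0.0901).

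Among 12 ER folding enzymes and lectins 2 rose, none fell, 11 changes were above 0 and the median change was 0.16. Over all genes 7.67% rose, 8.01% fell and 42.3% of changes were above 0. All miR-34c arrays lay above all scramble arrays in 7 of the 12 and below in 0, against 15.3% and 18.9% of all genes. CRELD2, an ER protein induced by stress, was 1.5-fold higher (log2 change 0.58 ± 0.078, SE, limma adjusted p = 0.00117) and passed under all 15 alternatives. PDIA4, a disulfide isomerase, was 1.24-fold higher (adjusted p = 0.0193) and did not pass when scramble replicate 1 or any miR-34c replicate was left out (largest adjusted p = 0.0714). Of 13 HSP90 co-chaperones none passed in limma, and 4 had an unadjusted p under 0.05 (median change 0.060).

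Of 14 subunits of the CCT chaperonin and of prefoldin, which fold actin and tubulin, the prefoldin subunit PFDN6 rose 1.22-fold (adjusted p = 0.0259) and none fell. Its call was lost when scramble replicate 3 or any miR-34c replicate was left out (largest adjusted p = 0.104). Of 6 mitochondrial quality control genes the disaggregase CLPB fell to 0.804 of the scramble level (adjusted p = 0.0262), a call lost when replicate 2 or 3 of miR-34c or replicate 1 or 2 of scramble was left out (largest adjusted p = 0.106). Of 7 other heat shock factors and heat-induced genes CRYAB rose and HSBP1, a small protein that binds HSF1, fell to 0.775 of the scramble level (adjusted p = 0.0439), a call that held in 1 of 6 fits with an array left out, that without miR-34c replicate 2, and was lost over all probe sets too (largest adjusted p = 0.147). Of 3 J proteins with other names (GAK, HSCB and SEC63) none passed, and none had an unadjusted p under 0.05.

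Markers of other cells were also read. None of 5 leukocyte and blood markers passed in limma or had an unadjusted p under 0.05. Of 6 fibroblast and endothelial markers PECAM1, an endothelial adhesion molecule, fell to 0.444 of the scramble level (adjusted p = 0.00171), and DCN, LUM, COL3A1, VWF and CDH5 had changes of -0.19 to 0.10 that did not pass. The part of this fall in the results was not tested. Because the deposited values are centred, the level of a gene, and so the presence of a cell type, cannot be read from them, and fewer cells of a type and less RNA per cell cannot be told apart in bulk RNA.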

How the data were processed

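Per the labels' protocols, Trizol-extracted total RNA of PC3 cells was labelled for whole-transcript arrays. The authors made the values with RMA (Expression Console, version not given), per the submitters' processing notes. The deposited log2 values lie around 0, so a reference value, not described in the sources used here, was subtracted from each probe set. It cancels between groups, but levels of different genes cannot be compared. The base of 2 follows from RMA and is stated nowhere else.

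Of 28868 probe sets, 19309 are paired with 1 symbol. For genes with several, the probe set whose mean over all arrays was highest stood for the gene. The fit was limma 3.58.1 (R 4.3.3): lmFit by group and eBayes with a variance trend over 18376 genes, Benjamini-Hochberg threshold 0.05, tested on simulated data. Arrays of the same group correlated at 0.77 to 0.88 and arrays of different groups at 0.56 to 0.70. With 3 arrays per group, their number limits the precision.

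Named are the members that passed, 3 per class by adjusted p and 1 by size, a fixed set of main chaperones, and up to 3 called genes per partner list. Members and lists were chosen with earlier results of these data known. Alternatives were the replicate block, other priors, re-centring, quantile normalization, array weights, other gene sets and leaving out each array.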

Additional observations from a re-analysis of the deposited data

How the results depend on the processing

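The count of rises among the 70 members was 5, and that of falls 3. Rises numbered 3 with the replicate number as a block, 8 with quantile normalization again, 10 with array weights and 2 over all probe sets, which left 1 fall. Leaving out each array in turn gave 2 to 8 rises and 0 to 5 falls. All genes called, 2881, ranged from 1655 to 2652 in the same fits. The cause of these shifts was not tested. HSPA2 and HSPA1L passed in all 15 alternatives. Another 8 members passed only in an alternative. Of the 70, 22 changed sign in at least 1 alternative, none of them a called member and all with a main log2 change within 0.088 of 0. Among the named ones, DNAJA2 was 0.0012 with array weights and -0.20 to 0.041 with an array left out, HSPB7 -0.18 to 0.093, DNAJC3 -0.13 to 0.0020 and HSF1 -0.037 to 0.079. Same-numbered arrays did not deviate together (r = -0.0051, 0.12 and -0.085 over genes), so the numbers were not taken as pairs. Without brightness, genes near background could not be set aside.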

Other observations

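Besides the 70 genes, 13 pseudogenes with the same name stems have probe sets of their own, 11 of them copies of HSP90 genes. None passed in limma, none had an unadjusted p under 0.05, and their log2 changes lay between -0.38 (DNAJA1P5) and 0.27 (HSP90AA6P), with a median of 0.021. HSPA6, a strictly heat-induced HSP70, shares a further probe set with its neighbour HSPA7, which changed by 0.22 ± 0.18 (SE), beside 0.20 ± 0.16 on the probe set of HSPA6 alone. The probe set of HSPB2 and its readthrough transcript changed by 0.010, and that of DNAJC25 and its readthrough transcript by -0.19 ± 0.11 (limma adjusted p = 0.307 over all probe sets).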
